A study of Mus musculus with 12 samples.

Results

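Hematopoietic stem and progenitor cells (HSPCs) from mice fed a high-salt diet (HSD) were compared between mice with intracerebral hemorrhage (ICH) and mice without it. The comparison used 6 of the 12 RNA-seq libraries of the series, 3 labelled HSD with no treatment and 3 labelled HSD with ICHD7, called HSD ICH here. Expression is given in CPM, the reads of a gene scaled to the size of its library. A gene was kept when 3 or more of the 6 libraries exceeded 10 CPM, which left 9729 of the 20792 genes listed. HSPCs were sorted from the bone marrow (BM) of the femurs and tibias as cells without lineage markers or CD127 and with c-kit and Sca-1. All mice were wild-type males that were 6 weeks old when the diet began, and salt was given in chow and drinking water for 8 weeks. For ICH, a mouse's own blood was injected into the brain, and HSPCs were taken on day 7. The mice returned to normal diet (ND) after ICH, so HSD mice were on salt until their cells were taken and HSD ICH mice were not. ICH, the surgery and salt withdrawal therefore cannot be told apart in these libraries. Each HSD library pooled 3 animals, and no such number was found for HSD ICH, so the p-values measure the spread between these libraries.

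HSPCs are the source of all blood cells. Under infection, injury or bleeding the marrow can raise its output of neutrophils and monocytes, and progenitors that lean to this lineage make transcripts of granule proteases and of monocyte receptors while they still divide. Less committed HSPCs are known for transcription factors such as Hlf, Mecom and Meis1 and for basal expression of interferon-stimulated and MHC class I genes.

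The listed genes held 8678304 to 15469971 reads in the HSD libraries and 12286357 to 27491973 in the HSD ICH libraries. HSD ICH replicate 3 had the most reads and stood apart from the other libraries. On the first principal component, which held 64.3% of the variance of log2 CPM, it scored 38.9, the other HSD ICH libraries 9.03 and 8.65, and the HSD libraries −21.8, −19.7 and −15.1. HSD replicate 2 stood apart in macrophage genes, whose 8 markers summed to 548 CPM there, to 64.6 and 51.2 CPM in the other HSD libraries and to 20.8 to 87.1 CPM in HSD ICH. Of 12 HSPC markers 10 had a lower mean in HSD ICH, and their sums ran from 1690 to 1860 CPM in HSD and from 1020 to 1530 CPM in HSD ICH. Ly6a, which encodes Sca-1, a marker of the sort, was at 2.42 to 5.18 CPM in all 6 libraries, although the cells were sorted as Sca-1 positive. The reason for this low value was not tested. The markers of mature neutrophils had a higher mean in HSD ICH for 7 of 7 genes, with sums of 29.7 to 36 CPM in HSD and 52.8 to 60.1 CPM in HSD ICH. In HSD ICH replicate 3, however, Ngp (8.99 CPM) lay below every HSD library, and Ltf, Camp and Retnlg lay within the HSD range. All but Ngp were under 10 CPM in every HSD library, where the listing of genes described below tilts values toward HSD ICH. Sums over 6 erythroid markers ran from 53.2 to 268 CPM in HSD and from 27.7 to 130 CPM in HSD ICH. The part of these cells in the results was not tested. In bulk RNA, fewer cells of a type and less RNA per cell cannot be told apart. The files list genes that were read after ICH: 1543 to 1755 of the listed genes were at 0 in each HSD library and 9 to 29 in each HSD ICH library.

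**Figure D1:**
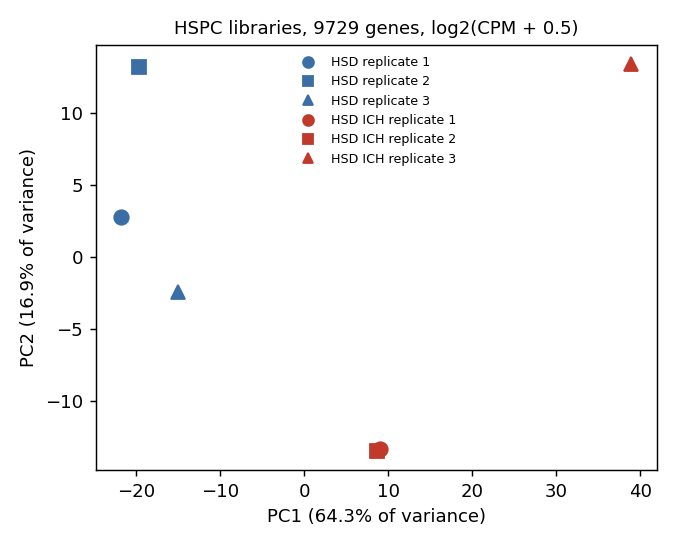
First against second principal component of log2(CPM + 0.5) over 9729 genes, with HSD in blue, HSD ICH in red and a symbol for each replicate. On the first component HSD ICH replicate 3 lies at 38.9, the other HSD ICH libraries at 9.03 and 8.65 and the HSD libraries at −21.8 to −15.1.

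Expression was compared by limma on log2(CPM + 0.5), where fold changes of low genes are understated. A gene was called when its Benjamini-Hochberg p, adjusted over all genes tested, was under 0.05. The p before adjustment is the nominal p, and the study threshold combined a nominal p under 0.05 with a log2 difference of 1 or more either way. A total of 44 genes were called (0.452%), 17 higher (0.175% of genes tested) and 27 lower in HSD ICH (0.278%). With upper quartile scaling the split was 26 higher and 22 lower, and with median centring it was 22 and 23. The median log2 fold change over all genes tested was −0.042. At the study threshold 92 genes were higher (0.946%) and 59 lower (0.606%). At a nominal p under 0.05, 611 genes were higher (6.28%) and 1381 lower (14.2%). This excess of lower genes depended on the scaling, and the counts over all genes tested were 1002 higher and 871 lower with TMM over the genes tested, 974 and 894 with RLE, 928 and 898 with upper quartile scaling and 929 and 941 with median centring. List counts at a nominal p that these scalings moved by over 1.5 times are given beside each list. The groups did not overlap for 884 genes that were higher (9.09%) and 1985 that were lower (20.4%). Of these genes, 68 higher and 62 lower passed the CPM filter through 1 group alone, which fixes the lack of overlap. Among named genes Abca13, Sele, Ttn, S100a9, Cebpd, Ms4a2, Mt1 and Gm10722 passed only through HSD ICH. So did mt-Td, mt-Tk, mt-Tp and the other mitochondrial tRNAs named below for this reason. Counts of the lists below stand beside the shares of all genes tested given here. Of the 27 called lower, 23 are snRNAs, snoRNAs or other short RNAs, and of the 17 called higher, 10 lie in loci that share repeats and 4 are mitochondrial tRNAs. Without HSD ICH replicate 3 the count rose to 245 genes, 86 higher (0.897%) and 159 lower (1.66%), of which 29 are among the 44. Without this library and HSD replicate 2 it was 544, 180 higher (1.92%) and 364 lower (3.88%). DESeq2 on reads recovered from the CPM called 481 genes, 295 higher (3.03%) and 186 lower (1.91%), and edgeR's quasi-likelihood test called 34, 17 in each direction (0.175% each).

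Transcripts of granulocyte-monocyte priming, the granule proteases, receptors and factors of the neutrophil and monocyte lineage, were higher in HSD ICH. Of 33 genes tested, 31 had a higher mean, 24 were higher at a nominal p under 0.05 and 16 at the study threshold, and the median log2 fold change was 0.971. None was called by limma with all libraries, where DESeq2 called 20. For 21 the 2 groups did not overlap in this direction. Calr, which is described with the ER genes, is also a member. The members named here were chosen after their values were seen.

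Elane, Mpo and Ctsg encode the neutrophil granule proteins neutrophil elastase, myeloperoxidase and cathepsin G. Their promoters are shown as examples of genes on this list with a log2 difference above 1. Each promoter spans 250 bases before and 50 after the start of the gene, from RefSeq on GRCm38.p6. In that order they lie at chr10:79886062-79886361 on the plus strand, chr11:87793534-87793833 on the plus strand and chr14:56102525-56102824 on the minus strand. Capitals mark GAGGAA, a core recognized by the myeloid factor PU.1.
Elane: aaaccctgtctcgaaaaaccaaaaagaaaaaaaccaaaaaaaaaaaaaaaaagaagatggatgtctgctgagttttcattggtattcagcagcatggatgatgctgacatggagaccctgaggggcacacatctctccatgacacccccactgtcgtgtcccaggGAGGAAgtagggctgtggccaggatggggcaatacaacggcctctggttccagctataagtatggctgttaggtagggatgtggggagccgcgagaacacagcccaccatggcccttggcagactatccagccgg
Mpo: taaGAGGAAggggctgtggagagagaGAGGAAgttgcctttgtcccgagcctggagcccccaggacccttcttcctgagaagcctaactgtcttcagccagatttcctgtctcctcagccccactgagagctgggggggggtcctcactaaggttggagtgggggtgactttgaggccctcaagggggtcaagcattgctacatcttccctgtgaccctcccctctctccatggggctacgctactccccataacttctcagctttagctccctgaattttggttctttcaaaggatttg
Ctsg: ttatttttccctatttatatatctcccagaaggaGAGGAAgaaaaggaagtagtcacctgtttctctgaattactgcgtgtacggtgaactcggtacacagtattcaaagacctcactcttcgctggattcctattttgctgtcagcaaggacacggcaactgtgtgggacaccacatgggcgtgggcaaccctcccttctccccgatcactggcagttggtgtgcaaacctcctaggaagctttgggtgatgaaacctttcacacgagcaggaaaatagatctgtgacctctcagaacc
GAGGAA on either strand was found in 14 of the 23 list members with a promoter in the table (60.9%), in 30.6% of the 7243 genes tested that have one and in 28.3% of all 32851 promoters. TTGCNNAA, a core of the C/EBP factors, was found in 5 of the 23 (21.7%) and in 9.54% of genes tested. These matches describe the letters in the window and not binding.

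Values of single genes are given for replicates 1, 2 and 3 of HSD and then of HSD ICH, in CPM. Elane (chr10) was at 78.4, 117 and 88.6 CPM in HSD and at 368, 299 and 1343 CPM in HSD ICH. Every HSD ICH library lay above every HSD library, and HSD ICH replicate 3 was far above the other 2. The log2 fold change was 2.5 (SE 0.494), with an adjusted p of 0.0815. Mpo (chr11) went from 1712, 2037 and 1755 CPM to 4314, 3534 and 11011 CPM, a log2 difference of 1.59 (SE 0.379, adjusted p = 0.109). The groups did not overlap, and again replicate 3 was highest. Mpo overlaps an antisense gene, Gm11505, and the strand setting of the counting is not given in the sources used here. Ctsg was at 66.9, 98.5 and 64.7 CPM in HSD and at 184, 182 and 481 CPM in HSD ICH, with a log2 difference of 1.74 (SE 0.359, adjusted p = 0.0866). Prtn3, which encodes proteinase 3, stood at 71.7, 100.2 and 81.3 CPM against 198, 177 and 404 CPM, a log2 difference of 1.53 (SE 0.288, adjusted p = 0.0775). Groups were apart for both proteases. Without HSD ICH replicate 3 the log2 differences were smaller and the genes were called: Elane at 1.82 (adjusted p = 3.6e-05), Mpo at 1.09 (0.000911), Ctsg at 1.28 (0.000622) and Prtn3 at 1.16 (0.000316).

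Receptor and surface genes of monocytes and of granulocyte-monocyte progenitors were also highest in HSD ICH replicate 3. Ms4a3, a marker of granulocyte-monocyte progenitors, was at 10.01, 13.4 and 10.04 CPM in HSD and at 39.5, 30.6 and 116 CPM in HSD ICH (log2 difference 2.19, SE 0.429, adjusted p = 0.081). Ly6c2, which encodes an antigen of inflammatory monocytes, was at 15.2, 17.4 and 17.9 CPM and at 79.4, 50.2 and 369 CPM (2.73, SE 0.613, adjusted p = 0.102). The groups were apart for both genes, and HSD ICH replicate 3 carried the highest value in each. Ccr2, the receptor that draws monocytes out of the marrow, is among the 6 genes with the smallest p in the higher direction once small RNAs and clone names are left out. It was at 8.14, 12.4 and 10.8 CPM in HSD and at 33.3, 27.6 and 68.3 CPM in HSD ICH. Its log2 difference of 1.90 (SE 0.315) had an adjusted p of 0.0524. Alas1, the entry enzyme of heme synthesis, lay at 47.3, 65.1 and 48 CPM against 139, 123 and 409 CPM (log2 difference 1.85, SE 0.405, adjusted p = 0.0999).

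The transcription factors of the lineage differed less than its protease genes. Cebpd was at 7.24, 8.84 and 5.49 CPM in HSD and at 13.8, 13 and 31 CPM in HSD ICH (log2 difference 1.27, SE 0.327, adjusted p = 0.118), with no overlap. Spi1, which encodes PU.1, was at 54.7, 60.2 and 59.7 CPM and at 72.2, 61.2 and 93.8 CPM (0.36, SE 0.151, adjusted p = 0.236). Cebpa overlapped between groups, at 38.6, 53.3 and 34.5 CPM and 49.6, 60.8 and 63.7 CPM. Its log2 difference was 0.47 (SE 0.171, adjusted p = 0.197). Irf8 and Gfi1 also overlapped, with log2 differences of 0.87 (SE 0.324) and 0.50 (SE 0.219). Csf3r, the receptor of granulocyte colony-stimulating factor, went the other way: 186, 179 and 175 CPM in HSD and 126, 137 and 130.3 CPM in HSD ICH. All HSD ICH libraries lay below all HSD libraries, with a log2 difference of −0.45 (SE 0.0841, adjusted p = 0.0755). Lyz2, a lysozyme gene of mature myeloid cells, was at 56, 104 and 53.4 CPM against 63, 57.1 and 76.4 CPM, and the groups overlapped.

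**Figure D2:**
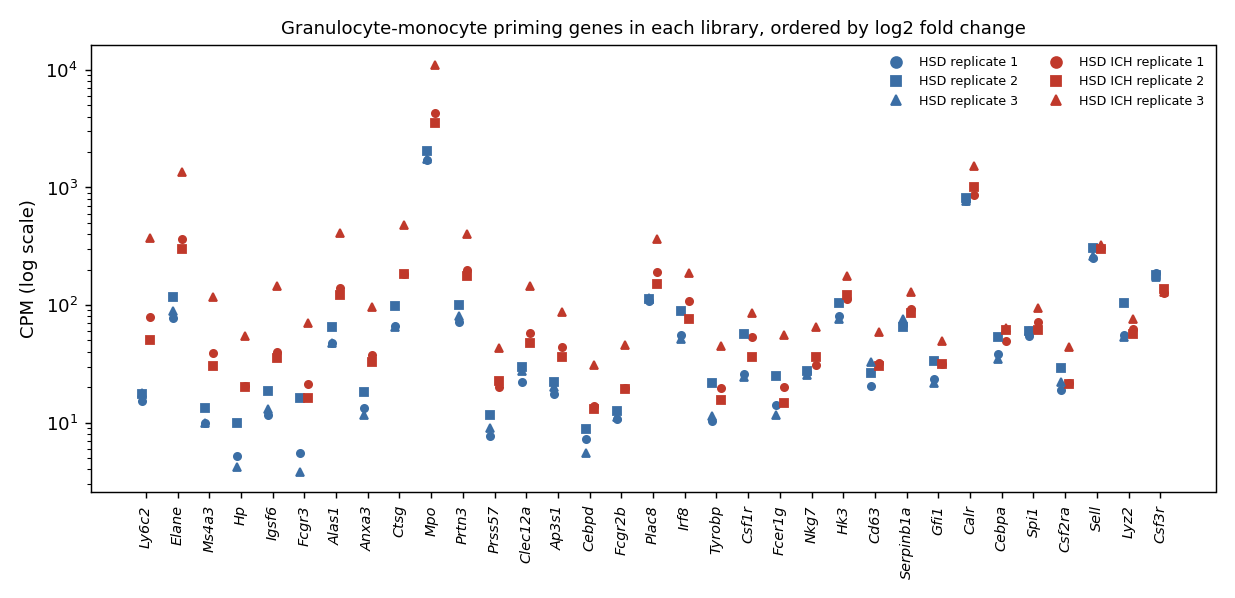
CPM on a log axis of the 33 tested genes of granulocyte-monocyte priming in each library, ordered by log2 fold change, with HSD in blue, HSD ICH in red and a symbol for each replicate. Elane ran from 78.4 to 117 CPM in HSD and from 299 to 1343 CPM in HSD ICH, and Csf3r, at the right end, was lower in HSD ICH.

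For granulocyte-monocyte priming, leaving out HSD ICH replicate 3 lowered the differences and narrowed the spread. Without that library 14 of 31 members tested were called higher and the median log2 fold change was 0.517. Without HSD replicate 2 as well, 19 of 29 were called higher and the median was 0.676. On ND, where no library is shared with this comparison, 30 of 33 members had a higher mean after ICH, 20 were higher at a nominal p under 0.05 (3.4% of genes tested) and 6 were called (0.495% of genes tested), with a median of 0.629. Elane there averaged 60.4 ± 30.2 CPM (SD, n = 3) in ND and 193 ± 60.4 CPM (n = 3) in ND ICH. Its log2 difference of 1.73 was called on ND (adjusted p = 0.0452). The ICH effect on HSD minus that on ND was 0.77 for Elane, 0.79 for Mpo and 0.64 for Ms4a3, with an adjusted p of 0.813 or more in limma's interaction test. None of the 33 reached a nominal p under 0.05 in that test.

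Outside the list, Abca13, an ABC transporter, was called, at 1.45, 1.91 and 1.48 CPM in HSD and 11.9, 11.4 and 43.5 CPM in HSD ICH. The groups were far apart, by 3.15 on the log2 scale (SE 0.468, adjusted p = 0.0319). Abca13 passed the CPM filter only through the HSD ICH libraries, so it was not tested when any 1 of these was left out. Its adjusted p passed the threshold only with all 3 HSD libraries. C3, the central complement component, was chosen after its values were seen. It was at 10.6, 14.8 and 9.83 CPM and at 45.9, 35 and 177 CPM (log2 difference 2.46, SE 0.525, adjusted p = 0.0924). F13a1, the coagulation factor XIII A chain that monocytes carry, was chosen in the same way and was at 39.1, 74.3 and 37.4 CPM and at 155, 147 and 448 CPM (2.17, SE 0.434, adjusted p = 0.0815). No HSD ICH library reached down to the HSD range for either gene. S100a9, a calgranulin gene that the study names, stood at 7.48, 6.13 and 5.49 CPM in HSD and at 13.5, 16.9 and 10.01 CPM in HSD ICH. Its log2 difference was 1.01 (SE 0.215, adjusted p = 0.0924), with no overlap, which the CPM filter fixed.

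Of the mature neutrophil granule genes, 5 exceeded 10 CPM in enough libraries to be tested, with a median log2 fold change of 0.079. Among them S100a9 was higher, Anxa1, which encodes annexin A1, was at 31.9, 35 and 38.7 CPM against 57.8, 49.5 and 102 CPM, and Padi4 was lower. Padi4, the enzyme that citrullinates histones in neutrophils, was at 37.2, 31.7 and 33.1 CPM in HSD and at 18.8, 19.1 and 10.9 CPM in HSD ICH (log2 difference −1.08, SE 0.209, adjusted p = 0.0798). The groups did not overlap for any of the 3 genes, of which Anxa1 and Padi4 were chosen after their values were seen. Most members lay under 10 CPM. With genes above 1 CPM, 13 of 15 had a higher mean in HSD ICH and the median was 0.911. Of these 11 were higher at a nominal p under 0.05 (against 1366 of 16256 over all genes tested at this filter). With no filter 16 of 18 had a higher mean and the median was 0.932. The files list genes read after ICH, and 1103 of them had no read in any HSD library. This tilts low genes toward HSD ICH, so no conclusion is drawn from the values with no filter. Lcn2, which encodes the iron-binding granule protein lipocalin 2, was at 3.8, 3.01 and 2.54 CPM in HSD and at 6.97, 9.02 and 9.86 CPM in HSD ICH. S100a8, the partner of S100a9, was at 4.46, 2.71 and 4.44 CPM and at 9.9, 11.1 and 22.4 CPM. Neither gene, chosen after its values were seen, overlapped between groups.

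Basophil and mast cell genes were few, with 7 tested and a median log2 fold change of 0.668. At a nominal p under 0.05 4 were higher, and 2 of these passed the study threshold. Cpa3, which encodes mast cell carboxypeptidase, was at 28.1, 30.3 and 33.6 CPM in HSD and at 42.8, 54.8 and 50 CPM in HSD ICH (log2 difference 0.67, SE 0.123, adjusted p = 0.0735). Ms4a2, a chain of the IgE receptor, was at 5.91, 6.03 and 3.7 CPM and at 10.1, 14.6 and 19.1 CPM (1.39, SE 0.268, adjusted p = 0.0798). Hdc, the histamine-forming enzyme, was at 8.02, 14.2 and 8.13 CPM and at 20.4, 24.9 and 50.1 CPM (1.55, SE 0.341, adjusted p = 0.102). For these 3 genes, chosen after their values were seen, no HSD ICH library fell within the HSD range. Gata2, shared with stem cells, overlapped, with a log2 difference of −0.25. Without HSD ICH replicate 3 the median over this list was 0.165, from 6 genes tested.

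Genes of stem cell identity were mostly lower in HSD ICH. Of 28 tested, 27 had a lower mean, 13 were lower at a nominal p under 0.05 (8 with each of the other 4 scalings) and 3 at the study threshold. For 15 the groups did not overlap, against 20.4% of all genes tested in this direction. The median log2 fold change was −0.363, and none was called. Fgd5, a gene used to label long-term stem cells, was at 19.1, 17.3 and 12.7 CPM in HSD and at 10.04, 7.98 and 5.06 CPM in HSD ICH (log2 difference −1.07, SE 0.255, adjusted p = 0.11). Hlf was at 169, 143 and 169 CPM and at 124, 119.5 and 71.3 CPM (−0.64, SE 0.203, adjusted p = 0.168). Groups were apart for both, with HSD ICH replicate 3 lowest. Kit, which encodes the sort marker c-kit, had a log2 difference of −0.28 (SE 0.121), and Cd34 one of −0.47 (SE 0.144). Flt3 overlapped narrowly, at 278, 263 and 219.96 CPM in HSD and 220.5, 201 and 116 CPM in HSD ICH. Fgd5 was chosen after its values were seen. Tie1, a receptor tyrosine kinase of stem cells and endothelium, is among the 6 genes with the smallest p in the lower direction once small RNAs and clone names are left out, at 47.6, 44.6 and 45.3 CPM in HSD and 23.4, 28.7 and 18.2 CPM in HSD ICH (−0.98, SE 0.157, adjusted p = 0.0502).

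The median for stem cell identity depended on HSD ICH replicate 3: without it, it was −0.165, 23 of 28 members had a lower mean and 3 were called lower. With HSD replicate 2 left out too, 8 of 27 were called lower and the median was −0.166. After ICH on ND the median was −0.14, and 6 of 28 were lower at a nominal p under 0.05 (17.7% of genes tested), so the share on ND lay near that of all genes. Fgd5 averaged 15.5 ± 1.71 CPM (SD, n = 3) in ND and 12.3 ± 1.07 CPM (n = 3) in ND ICH. Its ICH effect on HSD minus that on ND was −0.75, with an adjusted p of 0.813 in the interaction test. Car2 and the globin genes belong to erythroid genes, of which 15 were tested, 5 were lower at a nominal p under 0.05 (3 with TMM over the genes tested) and the median was −0.369. Hbb-bs, a globin gene whose product marks erythrocytes, was at 28.4, 51.3 and 14.7 CPM and at 27.1, 4.88 and 5.17 CPM, and the groups overlapped.

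Interferon response genes were lower in HSD ICH for 43 of 47 members by mean, and 24 were lower at a nominal p under 0.05, a share above the 14.2% of all genes tested. The median log2 fold change was −0.345, and none was called. The promoter of Stat2, a subunit of the factor that type I interferon activates, is shown because it holds the core of the interferon-stimulated response element in capitals, GAAA and again GAAA with 2 bases of any kind between them. It lies at chr10:128270248-128270547 on the plus strand (RefSeq, GRCm38.p6), and the match is on the opposite strand.
Stat2: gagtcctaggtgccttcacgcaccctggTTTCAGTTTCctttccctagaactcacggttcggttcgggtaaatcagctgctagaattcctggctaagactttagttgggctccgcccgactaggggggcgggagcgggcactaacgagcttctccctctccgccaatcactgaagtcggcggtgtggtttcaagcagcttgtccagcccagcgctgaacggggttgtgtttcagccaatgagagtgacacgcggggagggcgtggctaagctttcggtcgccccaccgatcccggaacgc
This core was found in 18 of 38 list members with a promoter in the table (47.4%) and in 3.99% of genes tested. Stat2 was at 30.2, 27.7 and 28.2 CPM in HSD and at 25.3, 20.4 and 21.5 CPM in HSD ICH (log2 difference −0.36, SE 0.115, adjusted p = 0.172). Irf9, its partner, was at 57.2, 53.4 and 50.1 CPM and at 42.5, 35.5 and 32.3 CPM (−0.54, SE 0.122, adjusted p = 0.102). For both subunits, chosen after their values were seen, the groups did not overlap. Tgtp1, an interferon-induced GTPase, passed the study threshold, at 113, 84.8 and 111 CPM against 81, 56.9 and 27.4 CPM (−1.01, SE 0.34, adjusted p = 0.178). On ND the median over interferon response genes after ICH was −0.246, with 21 of 52 lower at a nominal p under 0.05.

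Genes for MHC class I and II were lower for all 18 members tested by mean, 12 at a nominal p under 0.05 and 12 without overlap, with a median log2 fold change of −0.376. MHC class I molecules present peptides on nearly all nucleated cells. H2-Q4, a nonclassical class I gene, was at 109, 104 and 110.1 CPM in HSD and at 67.6, 68.7 and 49 CPM in HSD ICH. Its log2 difference of −0.81 (SE 0.136) had an adjusted p of 0.0527. H2-Q7 was at 196, 175 and 212 CPM and at 95.9, 115 and 50.7 CPM (−1.23, SE 0.266, adjusted p = 0.0967). The groups were apart for both, with HSD ICH replicate 3 lowest. The H2-Q genes resemble each other, so reads may be split between them. The classical genes H2-K1 and H2-D1 differed less, by −0.47 (SE 0.121) and −0.33 (SE 0.102). B2m, the shared light chain of class I molecules, was at 355, 299 and 444 CPM against 329, 297 and 382 CPM, and the groups overlapped. Nlrc5, the activator of class I genes, was at 90.3, 87.2 and 94.6 CPM and at 71.8, 71.6 and 49.7 CPM (−0.51, SE 0.147, adjusted p = 0.143). Without HSD ICH replicate 3, 3 of the 18 genes for MHC class I and II were called lower, among them H2-Q4 (adjusted p = 0.00105) and H2-Q7 (adjusted p = 0.000808). H2-Q7, H2-K1, H2-D1, B2m and Nlrc5 were chosen after their values were seen.

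Immediate early genes, the transcription factors and phosphatases that respond to stimuli within minutes, were lower by mean for 27 of 29 members tested, 14 of them at a nominal p under 0.05. The median log2 fold change was −0.428, and none was called. Klf10 was at 37.7, 41 and 45.9 CPM in HSD and at 26, 30.2 and 27.8 CPM in HSD ICH (log2 difference −0.56, SE 0.112, adjusted p = 0.0815), with no overlap. Fosb was at 100.3, 109.9 and 109 CPM and at 93.9, 52.2 and 59.6 CPM (−0.67, SE 0.197, adjusted p = 0.145). Dusp1, a phosphatase that ends MAP kinase signals, was at 61, 62.1 and 59.2 CPM and at 53.2, 36.3 and 33.7 CPM (−0.59, SE 0.164, adjusted p = 0.136). Fos overlapped, at 95.8, 76 and 86.2 CPM against 96, 50 and 64.2 CPM. In Fosb, Dusp1 and Fos, which like Klf10 were chosen after their values were seen, HSD ICH replicate 1 was the highest of its group and lay close to HSD. Nr4a1, the orphan nuclear receptor that the study names, was under 10 CPM in all 6 libraries and was not tested. It was at 4.88, 4.42 and 2.96 CPM in HSD and at 3.76, 2.81 and 1.48 CPM in HSD ICH, which overlapped. On ND it fell from 14.1 ± 1.53 CPM (SD, n = 3) to 5.57 ± 0.403 CPM (n = 3) after ICH, a log2 change of −1.26 (adjusted p = 0.00657). Its ICH effect on HSD minus that on ND was 0.69, with an adjusted p of 0.813.

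Genes of heat shock and cytosolic chaperones, which fold proteins in the cytosol under the control of Hsf1, were lower by mean for 31 of 39 members. At a nominal p under 0.05 10 were lower (against 14.2% of all genes tested), and the median log2 fold change was −0.16. The promoter of Hsph1, which encodes a large heat shock protein and passed the study threshold, is shown with pairs of heat shock units (GAANNTTC or TTCNNGAA, which can overlap) in capitals. It lies at chr5:149636266-149636565 on the minus strand (RefSeq, GRCm38.p6).
Hsph1: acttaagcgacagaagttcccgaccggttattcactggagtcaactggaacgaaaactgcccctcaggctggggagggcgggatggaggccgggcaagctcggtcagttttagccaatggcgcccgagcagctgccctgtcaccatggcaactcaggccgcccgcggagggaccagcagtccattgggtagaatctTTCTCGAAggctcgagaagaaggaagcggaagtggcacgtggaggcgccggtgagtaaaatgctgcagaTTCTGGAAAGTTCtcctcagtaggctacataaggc
GAANNTTC was found in 11 of 30 list members with a promoter in the table (36.7%) and in 6.77% of genes tested, and TTCNNGAA in 9 (30%) and 8.33%. Hsph1 was at 243, 110.2 and 153 CPM in HSD and at 58.7, 72.1 and 80.2 CPM in HSD ICH (log2 difference −1.19, SE 0.26, adjusted p = 0.0972). The HSD libraries were spread widely, and all lay above the HSD ICH libraries. Hsf1 was at 41.7, 37.3 and 39.8 CPM and at 27.9, 30.7 and 28.9 CPM (−0.43, SE 0.0964, adjusted p = 0.102). Dnajb1, a cochaperone that Hsf1 induces, was at 53.1, 47.3 and 50 CPM and at 41.8, 36.5 and 37.8 CPM (−0.37, SE 0.0983, adjusted p = 0.125). The major chaperone genes Hspa8 and Hsp90aa1 overlapped between groups, with log2 differences of −0.25 and −0.27. All were chosen after their values were seen.

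Heat shock and cytosolic chaperones became more uniform when libraries were left out. Without HSD ICH replicate 3, 38 of 39 members had a lower mean, 4 were called lower and the median was −0.23. Without HSD replicate 2 as well, 15 of 39 were called lower and the median was −0.265. After ICH on ND 36 of 39 had a lower mean, 6 were called lower and the median was −0.283. Over all genes tested on ND 6499 of 9696 had a lower mean, 0.701% were called lower and the median was −0.078. Hsph1 there fell from 176 ± 74 CPM (SD, n = 3) to 57.3 ± 4.99 CPM (n = 3), a log2 change of −1.54 (adjusted p = 0.0292). No member of the list reached a nominal p under 0.05 in the interaction test.

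ER chaperones and unfolded protein response genes, which serve the folding and export of secreted proteins, were higher in HSD ICH by mean for 44 of 47 members. At a nominal p under 0.05 12 were higher (19 or 20 with the other scalings), 20 did not overlap, and the median log2 fold change was 0.338. None was called. The promoter of Calr, which encodes the lectin chaperone calreticulin, is shown because it holds the ER stress element in capitals, CCAAT and CCACG with 9 bases of any kind between them, on the opposite strand. It lies at chr8:84846882-84847181 on the minus strand (RefSeq, GRCm38.p6).
Calr: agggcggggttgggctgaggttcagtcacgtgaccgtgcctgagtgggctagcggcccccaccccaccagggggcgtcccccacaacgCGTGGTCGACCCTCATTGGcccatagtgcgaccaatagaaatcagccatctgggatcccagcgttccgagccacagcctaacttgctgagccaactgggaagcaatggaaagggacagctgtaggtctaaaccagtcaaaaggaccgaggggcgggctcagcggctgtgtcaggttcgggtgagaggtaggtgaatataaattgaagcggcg
The element was found in 8 of 38 members with a promoter in the table (21.1%) and in 0.166% of genes tested. CCAAT alone, which is part of it, was found in 31 of 38 (81.6%) and in 43.2% of genes tested. Calr was at 772, 810.2 and 765 CPM in HSD and at 856, 1002 and 1531 CPM in HSD ICH (log2 difference 0.49, SE 0.2, adjusted p = 0.228). Sec61b, a subunit of the channel through which proteins enter the ER, was at 29.8, 28.5 and 32.6 CPM and at 39.9, 42.3 and 57.3 CPM (0.59, SE 0.146, adjusted p = 0.114). P4hb, a protein disulfide isomerase, was at 220.2, 233 and 227 CPM and at 291, 296 and 639 CPM (0.75, SE 0.274, adjusted p = 0.2). The groups were apart for all 3, chosen after their values were seen, with replicate 3 far above the others in Calr and P4hb. Hspa5, the main ER chaperone, overlapped, at 484, 435 and 373 CPM against 399, 406 and 678 CPM.

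For ER chaperones and unfolded protein response the median without HSD ICH replicate 3 was 0.103, with 35 of 47 members higher by mean and 1 called. On ND the same genes had a median of −0.008, with 23 higher and 24 lower by mean and 2 called lower after ICH. The ICH effect on HSD minus that on ND had a median of 0.338 over the 47 genes, against 0.042 over all genes tested in the interaction. Of the 47 genes 6 were higher at a nominal p under 0.05, against 287 of 10084 over all genes tested. None passed the adjusted threshold (adjusted p of 0.813 or more), so a difference between diets was not shown.

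Genes for cytosolic ribosomal proteins were higher by mean for 81 of 85 members, 18 at a nominal p under 0.05 (34 to 37 with the other scalings), with a median log2 fold change of 0.22, which was 0.092 without HSD ICH replicate 3. Of the mitochondrially encoded proteins, subunits of the respiratory chain, all 13 had a higher mean and 8 were higher at a nominal p under 0.05, with a median of 0.539. mt-Nd6 was at 424, 341 and 526 CPM in HSD and at 639, 662 and 768 CPM in HSD ICH (log2 difference 0.70, SE 0.164, adjusted p = 0.105), with no overlap. mt-Co1 overlapped, at 2743, 2611 and 3025 CPM against 3257, 3019 and 5064 CPM. Both were chosen after their values were seen. Over nuclear oxidative phosphorylation 64 of 73 genes had a higher mean and the median was 0.159. Of these 2 were higher at a nominal p under 0.05, and 8 to 10 with the other scalings, so whether their share lay below or above that of all genes tested depended on the scaling.

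G2/M genes had a median log2 fold change of 0.142, with 60 of 69 higher by mean and 14 higher at a nominal p under 0.05, a count that was 21 to 27 with the other scalings. Ccnb1, which encodes cyclin B1, was at 33.8, 31 and 36.2 CPM in HSD and at 46.5, 40.7 and 43.9 CPM in HSD ICH (log2 difference 0.37, SE 0.103, adjusted p = 0.135), with no overlap. Mki67, a marker of dividing cells, was at 1197, 1120 and 1196 CPM and at 1240, 1287 and 1424 CPM (0.17, SE 0.112, adjusted p = 0.422). S phase genes had a median of 0.021, with 36 higher and 29 lower by mean, and the median was −0.081 without HSD ICH replicate 3. At a nominal p under 0.05 1 was higher and 3 lower, against 6 or 7 higher and 1 lower with the other scalings. Among G1 cyclins, CDKs and CDK inhibitors 18 of 21 had a lower mean, with a median of −0.157, and 5 were lower at a nominal p under 0.05, but 1 with each of the other scalings. On ND 62 of 65 S phase genes had a lower mean after ICH, 36 were lower at a nominal p under 0.05 and the median was −0.241. In the interaction test 10 of the 65 were higher at a nominal p under 0.05, against 287 of 10084 over all genes tested. None passed the adjusted threshold, so the diets were not shown to differ. Ccnb1 and Mki67 were chosen after their values were seen.

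Among hematopoietic cytokine receptors, 5 of 33 were higher at a nominal p under 0.05 and 8 lower (5 lower with the other scalings). Over all genes tested these shares were 6.28% and 14.2%. The median of the receptors was −0.102. Ifngr1, a chain of the interferon gamma receptor, was at 58.5, 69.1 and 58.2 CPM in HSD and at 93.8, 97 and 199 CPM in HSD ICH (log2 difference 0.98, SE 0.265, adjusted p = 0.129). Il1r1, the interleukin 1 receptor, was at 43.7, 44.2 and 38.9 CPM and at 34.5, 31.3 and 21.2 CPM (−0.56, SE 0.176, adjusted p = 0.166). Jak3, the kinase of common gamma chain receptors, was at 132, 129.6 and 126 CPM and at 84.1, 93.4 and 64.3 CPM (−0.70, SE 0.137, adjusted p = 0.081). The groups were apart for these 3 genes, chosen after their values were seen. For Il1r1 the ICH effect on ND was 0.22, and the difference between diets of −0.79 had an adjusted p of 0.813.

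Genes of hyperosmotic and sodium handling were examined because HSD ICH mice had left the salt diet. Of 24 tested, 20 had a lower mean, 7 were lower at a nominal p under 0.05, and the median was −0.251. With the other scalings 3 to 5 were lower at that p, near the share of all genes tested with TMM and RLE. Slc12a7, a potassium chloride cotransporter, was at 43.1, 46.8 and 39.1 CPM in HSD and at 28.3, 23.7 and 19.6 CPM in HSD ICH. Its groups did not overlap, and its log2 difference of −0.85 (SE 0.146) had an adjusted p of 0.0575. Slc5a3, the inositol transporter that cells raise under high salt, was at 41.2, 30.8 and 38.2 CPM and at 28.2, 29.1 and 26.3 CPM (−0.38, SE 0.127, adjusted p = 0.173). Nfat5, the factor of the hyperosmotic response, overlapped, with a log2 difference of −0.29 (SE 0.138). After ICH on ND, where no salt was withdrawn, Slc5a3 differed by −0.41 and Nfat5 by −0.27, and the median over the list was −0.143. Slc12a7 differed by −0.30 on ND, and the difference between diets of −0.55 had an adjusted p of 0.813. All were chosen after their values were seen.

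Of NRF2 and antioxidant genes, 7 of 35 were higher at a nominal p under 0.05 and 4 passed the study threshold, while the median was 0.07. Gstm1, a glutathione transferase, was at 32, 31.3 and 29.8 CPM in HSD and at 68, 58 and 225 CPM in HSD ICH (log2 difference 1.62, SE 0.437, adjusted p = 0.128). Gsr, which encodes glutathione reductase, was at 42.6, 52.1 and 47.2 CPM and at 80.5, 81.2 and 226 CPM (1.26, SE 0.357, adjusted p = 0.14). Mt1, a metal-binding metallothionein, was at 4.58, 6.13 and 5.28 CPM and at 13.8, 11.8 and 42.3 CPM (1.76, SE 0.422, adjusted p = 0.11). Groups were apart for all 3, chosen after their values were seen, and HSD ICH replicate 3 was highest. Cholesterol synthesis genes were lower by mean for 17 of 21 members, 6 of them at a nominal p under 0.05, with a median of −0.191. Of the macrophage genes 12 of 14 had a lower mean, with a median of −0.748 and none at a nominal p under 0.05. Without HSD replicate 2 and HSD ICH replicate 3 that median was 0.077.

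**Figure D3:**
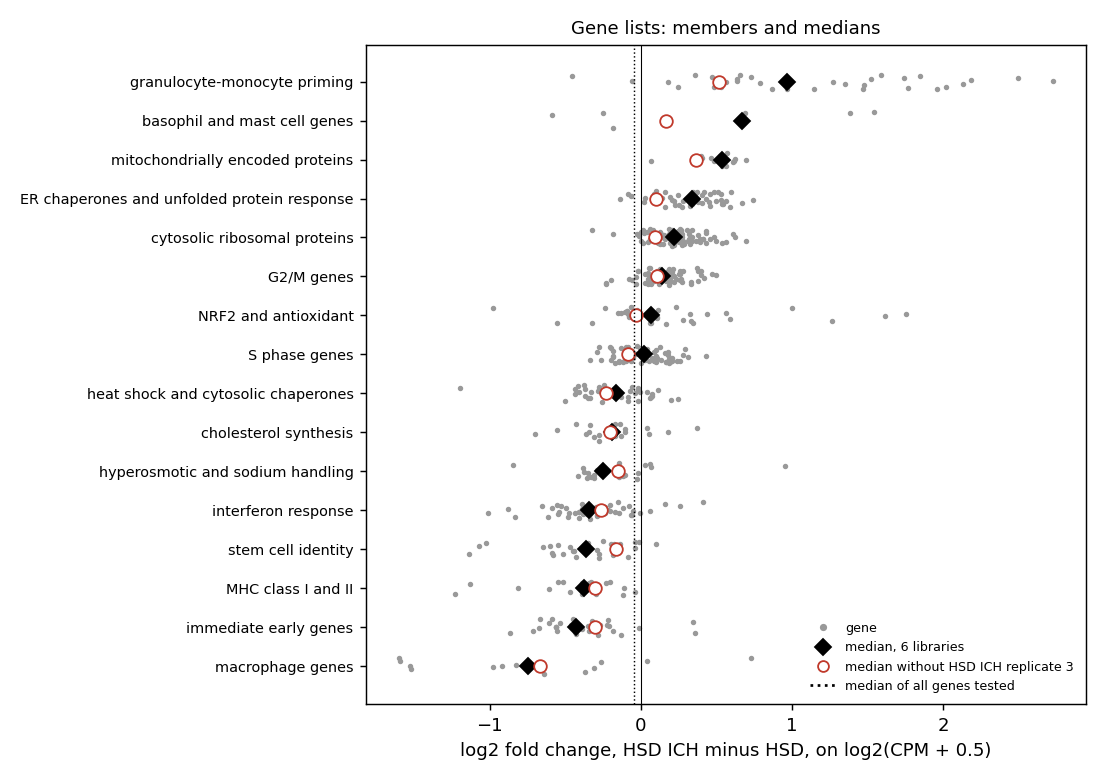
Log2 fold change of HSD ICH minus HSD for the tested members of 16 gene lists (grey points), with each list's median over 6 libraries (black diamonds) and without HSD ICH replicate 3 (open red circles), and the median of all genes tested at −0.042 (dotted line). The median of granulocyte-monocyte priming was 0.971 with all libraries and 0.517 without that library, and those of interferon response and stem cell identity were −0.345 and −0.363 with all libraries.

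Besides Abca13, 5 protein-coding genes outside the loci with shared repeats were called. Sele, an endothelial adhesion molecule, rose from 8.26, 9.95 and 8.66 CPM in HSD to 22.5, 22.8 and 33.8 CPM in HSD ICH (log2 fold change 1.48, SE 0.178, adjusted p = 0.011). Of 4 markers of endothelium 3 had a higher mean in HSD ICH and 1, Emcn, a lower mean. Their sums were 83.7 to 94.5 CPM in HSD and 93.1 to 99.3 CPM in HSD ICH, mostly from Pecam1 (75.4 to 91.4 CPM). Cdh5 was at 0.06, 0.1 and 0 CPM against 0.68, 1.4 and 0.51 CPM, and Kdr at 0.48, 1 and 0.53 CPM against 2.94, 1.03 and 1.08 CPM. Cdh5 and Kdr lie near 0, where the listing of genes read after ICH tilts values toward HSD ICH, so no conclusion is drawn from them. Of 5 stroma markers, also low, 4 had a higher mean in HSD ICH and 1 a lower mean. The stroma sums were 1.16 to 6.23 CPM in HSD and 4.26 to 6.9 CPM in HSD ICH. The part of endothelial cells in the values of Sele and these markers was not tested. Ttn, which encodes the muscle protein titin and overlaps the antisense gene Gm13938, rose from 7.9, 9.04 and 6.23 CPM to 24.2, 20.5 and 19.1 CPM (1.41, SE 0.168, adjusted p = 0.0109). Vldlr, a lipoprotein receptor, fell from 53.3, 48.2 and 51.6 CPM to 27.9, 28.9 and 20 CPM (−0.999, SE 0.147, adjusted p = 0.0303). Serpina3g, a serine protease inhibitor expressed in stem cells, fell from 80.5, 71 and 64.9 CPM to 40.3, 45 and 33.8 CPM (−0.86, SE 0.132, adjusted p = 0.0388). Zgpat, which encodes a zinc finger repressor, fell from 72.2, 73.3 and 67.5 CPM to 45.6, 49.7 and 42.8 CPM (−0.62, SE 0.0952, adjusted p = 0.0388). The groups did not overlap for any of these 5, which the CPM filter fixed for Sele and Ttn. Zgpat overlaps exons of Lime1 and Arfrp1, and Serpina3g belongs to a cluster of similar genes. Each of the 5 lost its call when some library was left out, Ttn without HSD replicate 1 and the other 4 whichever HSD replicate was left out. Vldlr and Serpina3g also lost it without HSD ICH replicate 1, and Zgpat without HSD ICH replicate 1 or 2. Sele and Ttn were not tested without any 1 HSD ICH library. On ND Vldlr was at 46 ± 4.98 CPM (SD, n = 3) without and 48.3 ± 14.2 CPM (n = 3) with ICH, and its difference between diets of −1.04 had an adjusted p of 0.813.

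Most calls were of short RNAs, which are listed beside mRNAs in the files. All 25 snRNAs tested were lower in HSD ICH, 12 were called and 24 passed the study threshold, with a median log2 fold change of −2.01. snRNAs form the core of the spliceosome, in which U1 pairs with the start of an intron and U2 with its branch point. The U1 gene Rnu1b6 at chr3:96460024-96460189 on the minus strand and the U2 gene Rnu2-10 at chr11:101658238-101658428 on the plus strand (GENCODE M21, GRCm38) are shown because they were called and exist in near-identical copies. Capitals mark ACTTACCTG, which pairs with the 5′ splice site, and GTAGTA, which pairs with the branch point.
Rnu1b6: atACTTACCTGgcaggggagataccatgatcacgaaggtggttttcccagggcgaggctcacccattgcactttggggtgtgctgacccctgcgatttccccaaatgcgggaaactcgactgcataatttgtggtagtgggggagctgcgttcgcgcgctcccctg
Rnu2-10: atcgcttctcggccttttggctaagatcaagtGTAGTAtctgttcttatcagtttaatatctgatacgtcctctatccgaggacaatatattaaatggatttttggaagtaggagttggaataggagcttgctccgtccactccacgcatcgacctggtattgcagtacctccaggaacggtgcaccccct
Rnu1b6 is identical to Gm24830 and Gm26232 over all 166 bases, and Rnu2-10 to Gm24950, Gm23971 and Gm23849 over all 191, so reads cannot be assigned between copies. Rnu1b6 fell from 76.6, 74.9 and 69.2 CPM in HSD to 27.6, 23.2 and 13.7 CPM in HSD ICH (log2 fold change −1.81, SE 0.225, adjusted p = 0.0137). Rnu2-10 fell from 414, 403 and 477 CPM to 146, 101 and 58.5 CPM (−2.17, SE 0.283, adjusted p = 0.0177). Groups were far apart for both, and both calls were lost when any HSD library was left out of the limma fit.

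Of 36 snoRNAs tested, 32 had a lower mean, 9 were called lower and 13 passed the study threshold, with a median log2 fold change of −0.70. snoRNAs guide chemical changes of ribosomal RNA and are mostly cut from introns of host genes. Snord15b at chr7:99479563-99479707 (minus strand, within Rps3), Snord17 at chr2:144265979-144266216 (minus strand) and Snora64 at chr17:24720772-24720905 (plus strand, within Rps2) are shown as called members of both classes (GENCODE M21, GRCm38). Capitals mark the C and D boxes of the first 2, TGATGA and CTGA, and the ACA box of the third.
Snord15b: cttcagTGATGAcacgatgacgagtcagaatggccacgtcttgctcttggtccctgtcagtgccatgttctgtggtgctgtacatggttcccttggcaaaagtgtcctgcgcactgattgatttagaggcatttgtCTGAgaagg
Snord17: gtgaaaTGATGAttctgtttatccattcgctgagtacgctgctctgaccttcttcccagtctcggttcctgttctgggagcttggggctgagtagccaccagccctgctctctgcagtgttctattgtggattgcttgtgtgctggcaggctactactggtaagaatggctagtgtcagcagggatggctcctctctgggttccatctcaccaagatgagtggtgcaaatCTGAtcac
Snora64: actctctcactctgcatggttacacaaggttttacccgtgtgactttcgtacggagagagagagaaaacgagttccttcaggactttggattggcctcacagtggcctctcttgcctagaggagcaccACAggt
Snord15b had the smallest p of all genes, falling from 292, 297 and 303 CPM in HSD to 73.5, 86.3 and 70.8 CPM in HSD ICH (log2 fold change −1.95, SE 0.0996, adjusted p = 0.000173). Snord17 fell from 129, 149 and 143 CPM to 69.3, 69.5 and 57.5 CPM (−1.10, SE 0.11, adjusted p = 0.00376). Snora64 fell from 52.2, 31.5 and 42.4 CPM to 15.7, 9.31 and 11.1 CPM (−1.76, SE 0.229, adjusted p = 0.0177). In each the libraries of a group were close together and the groups well apart. The calls of Snord15b and Snord17 held in every setting that tested them, which the fit over protein-coding genes did not. That of Snora64 was lost without HSD replicate 1 or 3. Vaultrc5, a vault RNA, fell from 25, 25.3 and 30.8 CPM to 10.04, 7.17 and 7.77 CPM (−1.65, SE 0.16, adjusted p = 0.00318).

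Mitochondrial tRNAs went the other way. All 22 tested had a higher mean in HSD ICH, 20 did not overlap between groups, 14 passed the study threshold and 4 were called, with a median log2 fold change of 1.15. mt-Td, the tRNA for aspartate at positions 6942 to 7011 of the mitochondrial genome, and mt-Tk, that for lysine at 7700 to 7764, both on the plus strand, are shown as the called members with the largest fold changes.
mt-Td: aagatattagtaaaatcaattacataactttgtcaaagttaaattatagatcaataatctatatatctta
mt-Tk: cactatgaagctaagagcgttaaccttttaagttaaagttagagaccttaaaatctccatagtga
mt-Td rose from 3.92, 1.81 and 5.28 CPM in HSD to 32.4, 30.7 and 14.7 CPM in HSD ICH (log2 fold change 2.68, SE 0.394, adjusted p = 0.0303). mt-Tk rose from 5.67, 4.22 and 6.97 CPM to 27.3, 22.1 and 17.6 CPM (1.90, SE 0.22, adjusted p = 0.00919). mt-Tp, for proline, rose from 7.96, 8.74 and 8.77 CPM to 28, 22.5 and 23.8 CPM (1.49, SE 0.13, adjusted p = 0.00207). These 3 tRNAs passed the CPM filter only through HSD ICH, as did mt-Ts2, the remaining called member. The same held for mt-Tg, mt-Th, mt-Ti, mt-Tl2 and mt-Tt. For all of these the filter fixed the higher mean and the lack of overlap, and none was tested without any 1 HSD ICH library. The calls of mt-Td and mt-Ts2 were lost whichever HSD replicate was left out and that of mt-Tk without HSD replicate 1.

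The largest fold changes belonged to 10 loci that share repeated sequence. They lie on chromosomes 2, 9 and 14, and from 35.8% to 89.3% of the 31-base words of each occur in another of them. The 50 bases shown are the run shared by most of them, present in 8 of the 10 and in 9 GENCODE genes in all, so reads from them cannot be placed.
shared repeat: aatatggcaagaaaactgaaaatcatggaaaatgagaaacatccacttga
Gm10722 rose from 0.543, 0.804 and 3.59 CPM in HSD to 367, 377 and 223 CPM in HSD ICH (log2 fold change 7.47, SE 0.469, adjusted p = 0.000438). Gm10800, which does not hold the 50 bases, rose from 8.92, 27.1 and 112 CPM to 4739, 4094 and 2304 CPM (6.85, SE 0.76, adjusted p = 0.00757). The HSD libraries were spread widely, with HSD replicate 3 highest, and all lay far below the HSD ICH libraries. The 10 loci are the genes with a Gm number that were called higher, so their direction was fixed by that choice. Loci under 10 CPM in every HSD library, Gm10722 among them, passed the CPM filter only through HSD ICH, which fixed their lack of overlap. The call of Gm10800 was lost without HSD replicate 2. The median over the 10 loci was 0.241, 0.553 and 2.54 CPM in HSD and 177, 156 and 88.1 CPM in HSD ICH.

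**Figure D4:**
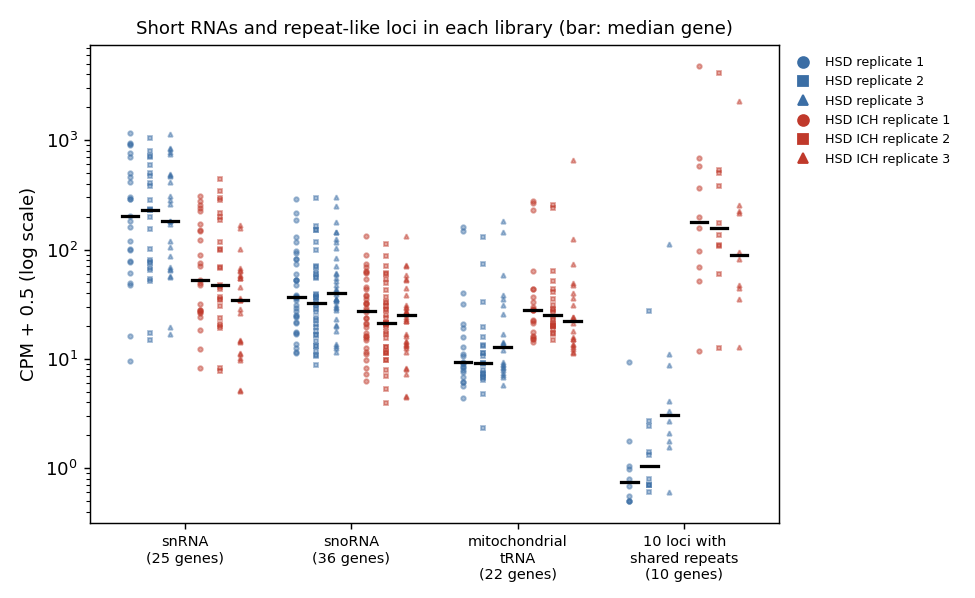
CPM + 0.5 on a log axis of each snRNA, snoRNA, mitochondrial tRNA and locus with shared repeats in each library, with a bar at the median gene. The snRNA median was 201, 228 and 181 CPM in HSD and 51.7, 46.9 and 34 CPM in HSD ICH, and the tRNA median was 8.83, 8.74 and 12.3 CPM against 27.4, 24.5 and 21.5 CPM.

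The same short RNAs differed after ICH on ND, in libraries that are not shared. There 25 of 25 snRNAs had a lower mean and 14 were called, with a median of −1.56. All 22 mitochondrial tRNAs had a higher mean and 14 were called, with a median of 1.03. Of these tRNAs mt-Td, mt-Tg, mt-Ti, mt-Tl2, mt-Tr, mt-Ts2 and mt-Tt passed the CPM filter there only through ND ICH, which fixed their direction. For snoRNAs the ND median was −0.432, with 3 of 36 called. In the interaction 11 of 36 were lower at a nominal p under 0.05, against 209 of 10084 over all genes tested. Snord15b averaged 406 ± 47.7 CPM (SD, n = 3) in ND and 194 ± 71.3 CPM (n = 3) in ND ICH, and its difference between diets of −0.83 had an adjusted p of 0.813. The genes at 0 also separate libraries with ICH from those without on both diets. The labels give no sequencing batch, so a batch and ICH cannot be told apart.

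Across all genes, ICH on ND called 116 of 9696 genes (1.2%), 48 higher (0.495%) and 68 lower (0.701%). The difference between the ICH effects on HSD and on ND was tested by limma over all 12 libraries. None of 10084 genes passed an adjusted p under 0.05, 496 had a nominal p under 0.05 (4.92%), and edgeR's quasi-likelihood test also called none. Among the genes with the smallest p, the effect on HSD was the higher for Rps23rg1, Phf19 and H3c3 and the lower for Clnk, Vldlr and Gimap8. Clnk, an adaptor of immune receptors, was at 17.7, 20.6 and 19.9 CPM in HSD and at 13.9, 11.7 and 7.66 CPM in HSD ICH, and averaged 16.5 ± 0.875 CPM (SD, n = 3) in ND and 21.3 ± 3.34 CPM (n = 3) in ND ICH. Phf19, a Polycomb cofactor, was at 10.4, 9.55 and 10.5 CPM and at 12.6, 14 and 13.1 CPM on HSD, and averaged 11.8 ± 0.201 and 8.9 ± 1.44 CPM (SD, n = 3 each) on ND. The values lay in opposite directions on the 2 diets for both genes, with differences of −1.17 and 0.77 (adjusted p = 0.813 for each).

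**Figure D5:**
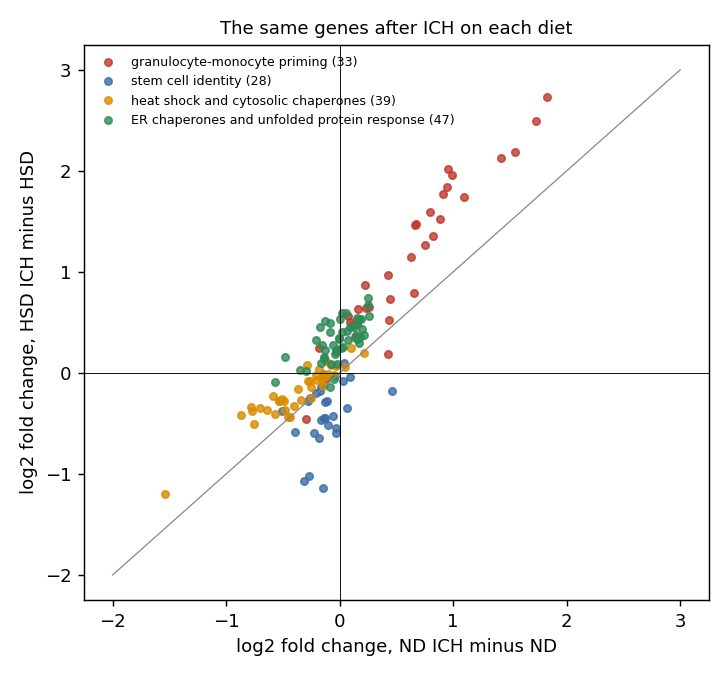
Log2 fold change after ICH on HSD (vertical) against that on ND (horizontal) for the members of 4 gene lists tested on both diets, with the diagonal in grey. Granulocyte-monocyte priming lies at the upper right, with medians of 0.971 on HSD and 0.629 on ND, and ER chaperones lie above 0 on HSD and around 0 on ND, with medians of 0.338 and −0.008.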

How the data were processed

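The deposited files hold CPM per gene, which the authors made from total RNA libraries (SMART-Seq Stranded kit) with Rsubread 1.32.4, featureCounts and edgeR 3.24.3 on mm10, scaled by TMM. The strand setting is not given in the sources used here. CPM were compared on log2(CPM + 0.5) with limma 3.58.1 (R 4.3.3), with a variance trend and Benjamini-Hochberg adjustment. Genes above 10 CPM in at least 3 of the 6 libraries were tested. Values were whole multiples of 1 read within 0.01 read, so whole reads were recovered, with less certainty for HSD replicate 2, and edgeR 4.0.16 and DESeq2 1.42.0 were run on them as alternatives. Other scalings, filters, pseudocounts and libraries left out were also tried, 2 of these settings chosen after seeing the data. Scripts were tested on simulated data. Of the gene IDs, 20511 matched GENCODE M21.

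The comparison and all gene lists were chosen with earlier results of these data known. Named genes were the 10 with the largest called change and the 6 with the smallest p in each direction, up to 4 called members per list, the sort markers, the genes the study names and the 6 per direction with the smallest interaction p, without clone names, pseudogenes and small RNAs. Genes outside this rule are said to be chosen after their values were seen. Some genes are not reported here.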

Additional observations from a re-analysis of the deposited data

How the results depend on the processing

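Of the alternatives for HSD ICH against HSD, pseudocounts of 0.1 and 1 and TMM, RLE, upper quartile and median scaling gave 44 to 48 called genes, of which 38 to 44 are among the 44. The count was 398 (293 higher and 105 lower) with genes above 1 CPM and 2384 (2008 and 376) with no filter, where genes listed at 0 in HSD enter. It was 523 (172 and 351) with all 12 libraries in 1 fit, 481 with DESeq2, 34 with edgeR's quasi-likelihood test, 544 without both libraries that stood apart, and 11 among protein-coding genes alone. Leaving out 1 library gave 20 to 245. Replicate numbers did not pair the libraries (correlations of deviations 0.148, −0.0996 and 0.0379), and the fit with a replicate block called 32, of which 29 are among the 44. At the study threshold the 151 genes became 571 above 1 CPM, 1728 with no filter, 72 without both libraries that stood apart, 90 among protein-coding genes and 75 to 171 without 1 library, and the replicate block gave 153. For ND ICH against ND, the 116 genes became 1992 above 1 CPM, 161 with the replicate block and 12 to 131 without 1 library. The difference between diets gave 0 in every setting run, the replicate block included. No named gene reversed direction where it was called in the main fit or in the alternative. The cause of these changes was not tested. Of the named genes' values, 2063 kept their direction and side of the threshold, 333 passed it newly and 70 no longer passed it. The other 7 changed direction, with the gene called in neither fit. Of the medians of gene lists, 911 stayed within the replicate spread and 63 moved beyond it.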
